A study of Mus musculus with 90 samples.

Results

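The genes described here code for cold-inducible RNA-binding proteins and heat shock proteins, whose transcripts are known to respond to temperature. They are Cirbp and Rbm3 on the cold side, and Hspa1a, Hspa1b, Hspa8, Hsph1, Hsp90aa1, Hsp90ab1, Dnajb1 and Hspb1 on the heat side. The 10 genes were picked by symbol, after the Ensembl identifiers of the count tables had been mapped to symbols, and all 10 were found among the 27654 genes of the tables. They were chosen with earlier results of these data known, so their shares of calls below carry that choice.

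Heat shock proteins are chaperones that bind unfolded or partly folded proteins and help them reach or regain their native shape. HSP70 proteins work in cycles of ATP hydrolysis that J-domain proteins start and HSP110 proteins reset, while HSP90 proteins complete the folding of kinases and of steroid receptors such as the glucocorticoid receptor (GR). Heat shock factor 1 raises their transcription when proteins misfold, and mild cooling raises the RNA-binding proteins Cirbp and Rbm3 instead. In mouse liver, transcripts of both kinds are known to follow the daily cycle of feeding and body temperature.

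Liver RNA was measured by bulk RNA-seq in adult male C57BL/6J mice on chow, each library from 1 animal, to ask how GR shapes the daily liver response to caloric restriction. Zeitgeber time (ZT) counts hours from lights on, and food was given at ZT12, when lights went off. Caloric restriction lowered intake stepwise to 40% fewer calories, with food given at lights off. Mice on the control diet had unlimited food at first and were fed at night alone in the week before collection. Corticosterone, the mouse glucocorticoid, or an ethanol and oil vehicle was injected daily into control-fed mice.

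The libraries fell into 28 groups of 3 or 4 livers. A time series covered 6 time points 4 h apart on each diet, with 36 libraries on caloric restriction and 42 on the control diet, in GRLKO mice and their controls. GRLKO mice were GRfl/fl x Alb-Cre, in which the albumin promoter drives Cre and deletes the floxed receptor gene in hepatocytes but not in other liver cells. Their controls, called WT here, were GRfl/fl mice without Cre. A diet comparison at ZT12 held 3 caloric restriction livers and 3 control-diet livers with the genotype label WT. Its control libraries have AL in their titles and night-restricted feeding in the treatment field. A corticosterone experiment at ZT12 held 3 treated and 3 control livers, also with the genotype label WT.

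Library totals in the time series ran from 14235473 to 20788575 estimated counts on caloric restriction and from 10057544 to 17089004 on the control diet. The diet comparison was deeper, at 36442195 to 39492146, and the corticosterone experiment held 13739631 to 16077943. Values below are CPM (counts relative to library size) after TMM scaling within each deposited table, and differences are log2 fold changes with their standard error (SE). The time-series libraries of each diet came in a table of their own, so diet and table cannot be told apart there. In whole liver, fewer cells of a type and less RNA per cell cannot be told apart.

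Some of the values carry limits of their own. Hsph1 was listed at 0 in 12 of the 90 libraries, and its lowest count in the other 78 was 33, so a listed 0 may be a failed estimate. The heat shock factor gene Hsf1 was listed at 0 in 74 of the 90 libraries, with 10 as the lowest count above 0, and its level is not read further. Hspa1a and Hspa1b are near-identical copies: 63.8% of the 31-base words of the Hspa1a transcript also occur in Hspa1b, and 67.6% of those of Hspa1b in Hspa1a. How the deposited estimates divide reads between this pair is uncertain.

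The corticosterone controls also stood apart in their clock genes. Arntl, a core clock gene, was at 10.1, 5.34 and 14.6 CPM in these controls. In control-diet WT livers of the time series it lay between 0 and 1.35 CPM at ZT12 and between 10.8 and 12.6 CPM at ZT16. Dbp, a clock output gene, was at 20.4, 6.65 and 3.49 CPM in the same controls, against 48.8 to 82.1 CPM in the ZT12 livers of the series. In the treated livers Arntl was at 0.455, 5.67 and 0.684 CPM and Dbp at 55.1, 12.6 and 42.2 CPM. By 12 clock genes, the nearest series time of the controls was ZT16, ZT16 and ZT20, and that of the treated livers ZT12, ZT16 and ZT8. The nearest time equalled the label in 1 of these 6 libraries, compared with 33 of 36 and 39 of 42 in the time series and 4 of 6 in the diet comparison. The part of this shift in the corticosterone results was not tested.

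The receptor gene Nr3c1, the target of the deletion, separated the genotypes in every comparison. On caloric restriction at ZT12 it was at 31, 32.2 and 30.8 CPM in GRLKO livers and 102, 98.0 and 104 CPM in WT livers. At the same time on the control diet it was at 18.7, 20.9, 20.4 and 25.2 CPM and 83.3, 87.9, 75.5 and 89.1 CPM. It was lower in all 12 genotype comparisons, with log2 fold changes between -2.06 and -1.70. Fkbp5, a GR target gene that codes for an HSP90 co-chaperone, served as a check of hormone action. Its mean was 236 CPM with corticosterone and 38.1 CPM in the controls.

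The genes lie on 7 chromosomes of the mm10 build, as annotated in GENCODE M21, and all are protein-coding. Cirbp (ENSMUSG00000045193) spans chr10:80165985-80172786 on the plus strand and Rbm3 (ENSMUSG00000031167) chrX:8138975-8145880 on the minus strand. The HSP70 pair lies close together on the minus strand, with Hspa1a (ENSMUSG00000091971) at chr17:34969190-34972156 and Hspa1b (ENSMUSG00000090877) at chr17:34956436-34959238. Hsp90ab1 (ENSMUSG00000023944) shares that chromosome, at chr17:45567775-45573271, and Hsp90aa1 (ENSMUSG00000021270) lies at chr12:110690605-110702728, both on the minus strand. Hspa8 (ENSMUSG00000015656) spans chr9:40800984-40810087 and Dnajb1 (ENSMUSG00000005483) chr8:83608193-83612653, both on the plus strand. Hsph1 (ENSMUSG00000029657) at chr5:149614287-149636376 on the minus strand and Hspb1 (ENSMUSG00000004951) at chr5:135887919-135889563 on the plus strand share a chromosome.

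Cirbp, which binds and stabilises transcripts and is raised by mild cooling, was lowest at ZT16 in all 4 series of 6 time points. In WT livers on caloric restriction it was at 40.8, 33.2 and 38.1 CPM at ZT0, 42.1, 47.8 and 36.4 at ZT4 and 30.7, 42.6 and 40.2 at ZT8. It then stood at 20.6, 12.0 and 15.4 CPM at ZT12, 12.4, 8.73 and 7.69 at ZT16 and 18.2, 18.7 and 21.3 at ZT20. The 3 light-phase groups overlapped each other and did not overlap the 3 later groups, and the highest mean was 4.38-fold above the lowest. ZT12 overlapped both ZT20 and ZT16. GRLKO livers on caloric restriction ran in the same range, from 45.5 ± 10 CPM (mean ± SD, n = 3) at ZT0 to 9.36 ± 1.2 at ZT16, a 4.86-fold span. The span was smaller on the control diet. There the means went from 27.2 CPM at ZT8 to 15.6 at ZT16 in WT livers (1.75-fold), with every group overlapping its neighbour in the order. In GRLKO livers on the control diet they went from 31.4 CPM at ZT8 to 12.9 at ZT16 (2.43-fold).

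Rbm3, the other cold-inducible RNA-binding protein, peaked later than Cirbp and had its highest mean at ZT12 in all 4 series. On caloric restriction WT livers held 77.7, 77.3 and 61.1 CPM at ZT4, 76.1, 98.2 and 68.5 at ZT8 and 88.1, 82.5 and 79.6 at ZT12. It was at 59.7, 58.7 and 59.4 CPM at ZT16, 33.0, 40.0 and 42.2 at ZT20 and 55.1, 52.7 and 34.3 at ZT0. ZT4, ZT8 and ZT12 overlapped in the order of the means, and all 3 lay above ZT16, ZT20 and ZT0. The highest mean was 2.17-fold above the lowest there, 1.71-fold in GRLKO livers on caloric restriction, 2.01-fold in WT livers on the control diet and 1.65-fold in GRLKO livers on the control diet. Each control-diet group overlapped the next in the order of Rbm3 means in both genotypes.

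Hsp90aa1, the stress-inducible HSP90 of the cytosol, had the widest daily span of the HSP90 pair, and its highest mean was at ZT16 in all 4 series. Its levels in WT livers on caloric restriction were 56.4, 49.2 and 60.2 CPM at ZT8, 124, 148 and 138 at ZT12, 765, 629.9 and 897 at ZT16 and 236, 201.1 and 215 at ZT20. It was at 75.7, 80.1 and 90.0 CPM at ZT0 and 73.6, 64.1 and 72.2 at ZT4. No group overlapped the next in the order, and the ZT16 mean was 13.8-fold above the ZT8 mean. The same ratio was 13.2-fold in GRLKO livers on caloric restriction, 4.44-fold in WT livers on the control diet and 5.53-fold in GRLKO livers on the control diet. At ZT16 the control-diet WT livers held 347, 313, 421 and 425 CPM, all below the caloric restriction livers. Hsp90ab1, the constitutive HSP90, had a smaller span with its highest mean at ZT16 in all 4 series. Its ratios of highest to lowest mean were 2.92 and 2.84 on caloric restriction in WT and GRLKO livers and 1.71 and 1.96 on the control diet. Hsp90ab1 in WT livers on caloric restriction went from 529.9 ± 18.9 CPM (mean ± SD, n = 3) at ZT4 to 1546 ± 239 at ZT16.

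**Figure D1:**
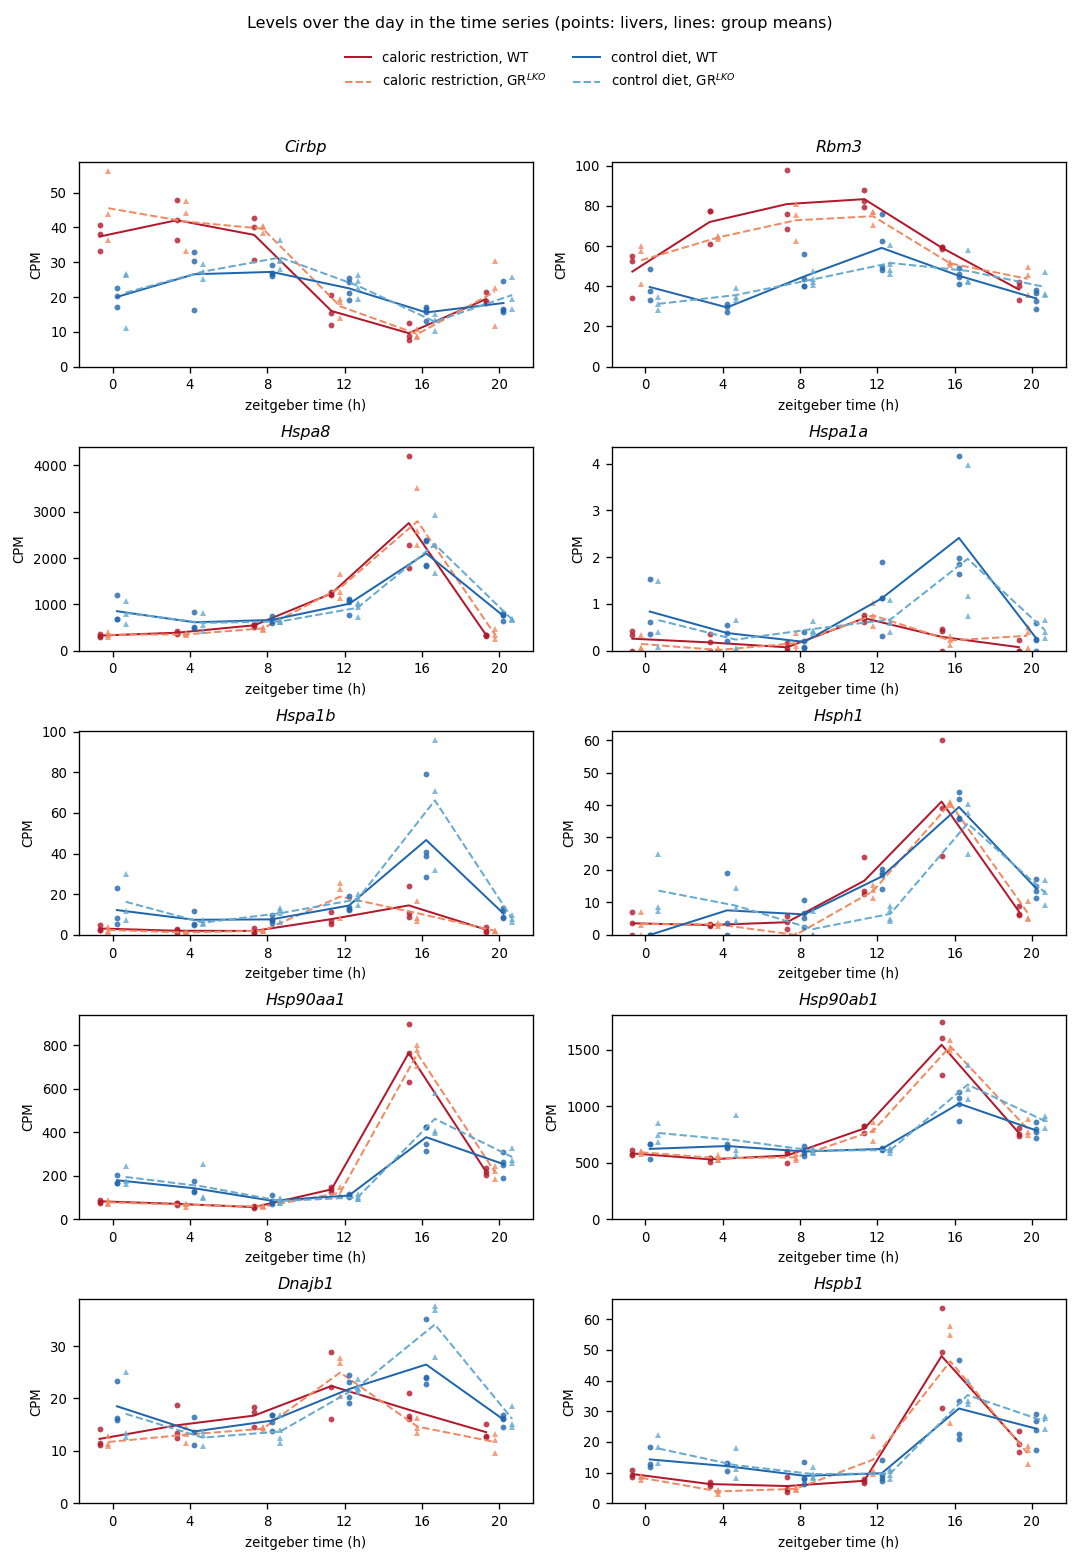
Levels of the 10 genes in CPM (vertical axis, from 0) against zeitgeber time in hours (horizontal axis), with each point 1 liver and each line through the means of a group. Caloric restriction is drawn in red (WT, circles) and orange (GRLKO, triangles, dashed) and the control diet in blue, and the WT livers on caloric restriction hold 629.9 to 897 CPM of Hsp90aa1 at ZT16, above those of every other time point.

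Among the HSP70 and HSP110 genes, Hspa8, the constitutive HSP70, was also highest at ZT16 in all 4 series. In WT livers on caloric restriction it was at 314, 362 and 306 CPM at ZT0, 582, 546 and 520.3 at ZT8, 1210.1, 1227 and 1269 at ZT12, 2283, 1776 and 4209.6 at ZT16 and 351, 324 and 348 at ZT20. The ZT16 livers stood above all others, with replicate 3 the highest, and ZT12 came next without overlap. Its ratios of highest to lowest mean were 8.41 and 8.07 on caloric restriction in WT and GRLKO livers and 3.42 and 3.81 on the control diet. Hsph1, the HSP110 that resets HSP70, was likewise highest at ZT16 in all 4 series, at 38.9, 24.3 and 59.9 CPM in WT livers on caloric restriction. Under the control diet it was at 35.7, 41.8, 44.1 and 36 CPM at ZT16 in WT livers and 25.1, 37.6 and 40.4 in GRLKO livers. Hspa1b, an inducible HSP70, was at 78.9, 28.4, 38.6 and 40.7 CPM at ZT16 in WT livers on the control diet and at 10.8, 8.87 and 24.0 on caloric restriction. Its ZT16 livers on the control diet did not overlap any other time point of the same genotype. Hspa1a, its near-identical copy, stayed under 5 CPM in every library of the time series, with the highest value of 4.15 CPM in a control-diet WT liver at ZT16.

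The small heat shock protein gene Hspb1, whose product holds unfolded proteins without using ATP, also had its highest mean at ZT16 in all 4 series. Restricted WT livers held 3.63, 4.77 and 8.46 CPM at ZT8, 6.73, 7.39 and 7.85 at ZT12, 63.6, 31 and 49.5 at ZT16 and 23.7, 16.7 and 19.3 at ZT20. The ZT16 and ZT20 groups overlapped neither each other nor any earlier group. Its ratios of highest to lowest mean were 8.54 and 12.0 on caloric restriction in WT and GRLKO livers and 3.45 and 3.71 on the control diet. Dnajb1, the J-domain partner of HSP70, had the smallest span of the 8 heat shock genes in WT livers on caloric restriction, at 1.82-fold. Its mean was highest at ZT12 on caloric restriction, at 16.1, 22.2 and 28.9 CPM in WT livers, and highest at ZT16 on the control diet, at 35.3, 23.8, 22.7 and 24.1 CPM. In WT livers each of these groups overlapped the next in the order.

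The step from ZT12 to ZT16 covers the first hours after food was given and lights went off, and most heat shock genes rose across it in all 4 groups. The tests in the next paragraphs are edgeR's quasi-likelihood tests with Benjamini-Hochberg (BH) adjustment over all genes tested, and a gene is called when its adjusted p is under 0.05. In WT livers on caloric restriction, 6 of 9 genes tested were called, 5 higher and 1 lower, beside 40.0% of all genes tested. In GRLKO livers on caloric restriction 8 of 9 were called (5 higher, 3 lower) beside 37.8% of all genes. With the control diet 7 of 10 were called in WT livers (6 higher, 1 lower) beside 13.4%, and 8 of 10 in GRLKO livers (7 higher, 1 lower) beside 9.06%. The median log2 fold change of the genes tested was 0.96, 0.99, 1.08 and 1.43 in that order, and that of all genes tested was 0.01, 0.00491, -0.00764 and 0.01. Hspa1a did not pass the filter on low counts in either comparison on caloric restriction.

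Both HSP90 genes were called higher at ZT16 in all 4 groups. In edgeR, Hsp90aa1 rose in WT livers on caloric restriction (log2 fold change 2.50, SE 0.14, BH-adjusted p = 0.000123) and in GRLKO livers (log2 fold change 2.67, SE 0.15, BH-adjusted p = 4.56e-05). It also rose in edgeR on the control diet, in WT livers (log2 fold change 1.8, SE 0.11, BH-adjusted p = 0.000366) and in GRLKO livers (log2 fold change 2.23, SE 0.16, BH-adjusted p = 0.000742). Every ZT16 liver lay above every ZT12 liver in each of these comparisons. Hsp90ab1 rose in edgeR by 0.96 (SE 0.12, BH-adjusted p = 0.00106) in WT and 0.99 (BH-adjusted p = 0.000426) in GRLKO livers on caloric restriction. Its edgeR log2 fold changes on the control diet were 0.72 (BH-adjusted p = 0.00187) in WT and 0.98 (BH-adjusted p = 0.00267) in GRLKO livers.

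The small heat shock gene Hspb1 and the HSP70 and HSP110 genes Hspa8 and Hsph1 were called in the same direction in all 4 groups. In edgeR, Hspb1 rose in WT livers on caloric restriction (log2 fold change 2.73, SE 0.25, BH-adjusted p = 0.000378), in GRLKO livers (log2 fold change 1.73, SE 0.38, BH-adjusted p = 0.0102), and on the control diet in WT livers (log2 fold change 1.66, BH-adjusted p = 0.00952) and GRLKO livers (log2 fold change 1.87, BH-adjusted p = 0.000764). Hspa8 rose in edgeR by 1.17 (SE 0.29, BH-adjusted p = 0.0155) in WT livers on caloric restriction. Without ZT12 replicate 1 its edgeR value was 1.15 (BH-adjusted p = 0.0506), and without ZT16 replicate 3, the highest liver, it was 0.73 and still called (BH-adjusted p = 0.00747). The other groups gave Hspa8 edgeR values of 1.06 (BH-adjusted p = 0.00438), 1.06 (BH-adjusted p = 0.00315) and 1.32 (BH-adjusted p = 0.00819). Hsph1 rose in edgeR by 1.32 (SE 0.36, BH-adjusted p = 0.0242) in WT livers on caloric restriction. That call was lost in edgeR without ZT12 replicate 1 (1.19, BH-adjusted p = 0.0794), ZT12 replicate 3 (1.14, BH-adjusted p = 0.0800), ZT16 replicate 1 (1.36, BH-adjusted p = 0.0581) or ZT16 replicate 3 (0.95, BH-adjusted p = 0.0725). The other groups gave Hsph1 edgeR values of 1.60 (BH-adjusted p = 0.000129), 1.14 (BH-adjusted p = 0.00168) and 2.41 (BH-adjusted p = 0.00325).

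The inducible HSP70 gene Hspa1b was called on the control diet and not on caloric restriction. In edgeR it rose in WT livers on the control diet (log2 fold change 1.69, SE 0.30, BH-adjusted p = 0.00916) and in GRLKO livers (log2 fold change 1.93, SE 0.32, BH-adjusted p = 0.0114). On caloric restriction its edgeR values were 0.92 (BH-adjusted p = 0.122) in WT and -0.80 (BH-adjusted p = 0.202) in GRLKO livers. The difference between the diets in this step was not tested. Without ZT12 replicate 1 of the GRLKO livers on caloric restriction, edgeR called Hspa1b lower there (log2 fold change -1.16, BH-adjusted p = 0.0447) and Hspa1a as well (-1.95, BH-adjusted p = 0.0389). Hspa1a was also called lower by edgeR without ZT16 replicate 3 of those livers (-2.06, BH-adjusted p = 0.0473). Dnajb1, the J-domain gene, went in opposite directions in the GRLKO livers of the 2 diets. In edgeR it fell on caloric restriction (log2 fold change -0.75, SE 0.14, BH-adjusted p = 0.00460) and rose on the control diet (log2 fold change 0.64, SE 0.12, BH-adjusted p = 0.0154). The rise was lost in edgeR without ZT16 replicate 2 (0.57, BH-adjusted p = 0.0583) or ZT16 replicate 3 (0.55, BH-adjusted p = 0.0667).

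The cold-inducible genes went the other way over the same step. In edgeR, Rbm3 fell on caloric restriction in WT livers (log2 fold change -0.47, SE 0.07, BH-adjusted p = 0.00278) and in GRLKO livers (log2 fold change -0.53, SE 0.08, BH-adjusted p = 0.00199), while the control diet gave -0.38 (BH-adjusted p = 0.103) and -0.10 (BH-adjusted p = 0.745). Cirbp fell in edgeR in GRLKO livers on caloric restriction (log2 fold change -0.87, SE 0.16, BH-adjusted p = 0.00482), in WT livers on the control diet (log2 fold change -0.52, SE 0.12, BH-adjusted p = 0.0192) and in GRLKO livers on the control diet (log2 fold change -0.83, SE 0.16, BH-adjusted p = 0.0167). The last of these calls was lost in edgeR without ZT16 replicate 2 (-0.88, BH-adjusted p = 0.0526) or ZT16 replicate 3 (-0.70, BH-adjusted p = 0.0531). Cirbp missed the threshold in edgeR in WT livers on caloric restriction (log2 fold change -0.71, SE 0.24, BH-adjusted p = 0.0507). There it was called by DESeq2 (BH-adjusted p = 0.0238), by edgeR with DESeq2's size factors (BH-adjusted p = 0.0479), and by edgeR without ZT12 replicate 2 (-0.88, BH-adjusted p = 0.0295) or ZT16 replicate 1 (-0.94, BH-adjusted p = 0.0335).

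Daily rhythms were tested with JTK_CYCLE, a rank test against waves of a 24 h period, over all 6 time points of a group. On caloric restriction 8 of 10 genes were called rhythmic in WT livers, beside 21.6% of all genes tested, and 9 of 10 in GRLKO livers, beside 19.7%. For the control diet 9 of 10 were called in WT livers, beside 26.6%, and 8 of 10 in GRLKO livers, beside 22.3%. The control diet held 22 WT and 20 GRLKO livers, and caloric restriction 18 of each, so these counts do not compare the diets. Hspa1a was not called in any group (BH-adjusted p of the exact JTK test from 0.185 to 1), Hspa1b missed in WT livers on caloric restriction (BH-adjusted JTK p = 0.0551) and Hsp90ab1 in GRLKO livers on the control diet (BH-adjusted JTK p = 0.0604). Hsp90ab1 gave a BH-adjusted JTK p of 0.000204 and Cirbp one of 0.000805 in WT livers on caloric restriction. The JTK peak of Cirbp was at ZT4 in all 4 groups, and that of Rbm3 at ZT8 on caloric restriction and ZT12 on the control diet. The peak of Hsp90aa1 lay at ZT16 on caloric restriction and ZT20 on the control diet in both genotypes, and that of Dnajb1 and Hspa8 at ZT12 and ZT16. With 1 replicate number left out at every time point, 2 genes were called in WT and 2 to 3 in GRLKO livers on caloric restriction, and 3 to 7 in WT and 1 to 4 in GRLKO livers on the control diet. In WT livers on caloric restriction Hsp90ab1 was called in each of these fits, and Cirbp in all but that without replicate 2 (BH-adjusted p of the exact JTK test 0.0515). The calls over all genes fell with them, from 4026 to between 393 and 756 in WT livers on caloric restriction. In GRLKO livers on that diet they fell from 3737 to between 299 and 395. On the control diet they fell from 5014 to between 2355 and 3243 in WT livers and from 4171 to between 1194 and 1385 in GRLKO livers.

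The rhythm was compared between the diets by its amplitude, as a description, and by a test of its sine and cosine terms together, which does not separate amplitude from peak time. A cosine fit on log2 CPM gave Cirbp an amplitude of 1.08 (SE 0.10) in WT livers on caloric restriction and 0.38 (SE 0.08) on the control diet. For Hsp90aa1 the amplitudes were 1.64 (SE 0.20) and 0.93 (SE 0.13), for Hspa8 1.34 (SE 0.22) and 0.71 (SE 0.14), and for Hspb1 1.37 (SE 0.21) and 0.84 (SE 0.14). Rbm3 (0.57 and 0.38), Hsp90ab1 (0.66 and 0.32) and Hspa1b (1.22 and 1.06) had the same order of amplitudes, Dnajb1 was at 0.37 and 0.38, and the order was the other way round for Hspa1a (0.56 and 0.93) and for Hsph1 with its listed zeros (2.07 and 3.13). Limma's F test of the rhythm difference between the diets in WT livers called 5 of 10 genes, beside 26.6% of all genes tested. These were Cirbp, Hsp90aa1, Rbm3, Hsp90ab1 and Hspa8, with Cirbp at a limma BH-adjusted p of 4.75e-05, while Hspb1 was not called (limma BH-adjusted p = 0.179). With 1 replicate number left out 2 to 3 genes were called, and diet and deposited table cannot be told apart. Cirbp was called by limma in each of these fits, while Rbm3 was lost without replicate 1 (limma BH-adjusted p = 0.107) and Hsp90aa1 without replicate 2 (limma BH-adjusted p = 0.0928). Hsp90ab1 (limma BH-adjusted p from 0.117 to 0.134) and Hspa8 (from 0.0990 to 0.200) were lost in each. Limma called 0 of 10 genes for a rhythm difference between genotypes on caloric restriction, beside 0.659% of all genes, with 0 at an unadjusted p under 0.05. Limma also called 0 of 10 on the control diet, beside 0.366%, with 1 at an unadjusted p under 0.05, which was Hsph1 (limma BH-adjusted p = 0.0619). No other tool was run for these differences.

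The diet comparison asks what caloric restriction does at ZT12, just before food, and there nearly all of the genes separated the 2 diets. By edgeR's quasi-likelihood test with BH adjustment 9 of 10 genes were called, 8 higher and 1 lower on caloric restriction, beside 47.1% of all genes tested (23.5% higher, 23.6% lower). The median log2 fold change was 0.73 over the 10 genes and -1.8e-06 over all genes tested. All 10 had no overlap between the groups, with 10 also at an unadjusted p under 0.05, and DESeq2 called 10. By clock genes, control replicates 1 and 3 were nearest to ZT8 in the time series, and control replicate 2 and all 3 restricted livers to ZT12. The part of this shift in the diet results was not tested.

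The 2 cold-inducible genes moved in opposite directions with caloric restriction at ZT12. Cirbp was at 17.4, 18.1 and 18.7 CPM on caloric restriction and 39.4, 31.1 and 25.8 CPM on the control diet. All 3 restricted livers lay below all 3 controls, which were themselves spread out (edgeR, log2 fold change -0.83, SE 0.15, BH-adjusted p = 0.00406). Rbm3 was at 97.2, 109 and 98.6 CPM and 68.6, 65.9 and 64.0 CPM, with all restricted livers above the narrow range of the controls (edgeR, log2 fold change 0.61, SE 0.07, BH-adjusted p = 0.000794).

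Of the chaperone genes, Hspa8 was at 1198, 1404 and 1546 CPM on caloric restriction and 812, 891 and 895 CPM on the control diet, without overlap (edgeR, log2 fold change 0.67, SE 0.11, BH-adjusted p = 0.00255). Dnajb1 was at 23.1, 29.5 and 28.0 CPM and 15.0, 13.9 and 18 CPM (edgeR, log2 fold change 0.78, SE 0.13, BH-adjusted p = 0.00291). Hsp90aa1 was at 103, 125 and 137 CPM and 83.5, 85.3 and 90.2 CPM (edgeR, log2 fold change 0.50, SE 0.11, BH-adjusted p = 0.00888). Every restricted liver lay above every control liver for these 3 genes. Hsph1 stood at 11.5, 12.1 and 13.4 CPM and 3.52, 2.95 and 7.66 CPM (edgeR, log2 fold change 1.39, SE 0.33, BH-adjusted p = 0.0119). The inducible HSP70 pair was low: Hspa1b was at 8.50, 9.98 and 8.57 CPM and 6.31, 3.55 and 3.59 CPM (edgeR, log2 fold change 1.00, SE 0.23, BH-adjusted p = 0.0113). Hspa1a was at 0.740, 1.2 and 0.983 CPM and 0.250, 0.444 and 0.291 CPM (edgeR, log2 fold change 1.56, SE 0.33, BH-adjusted p = 0.00731). These 3 genes showed no overlap either, and for Hspa1a the libraries held 10 to 46 counts, where a few counts weigh more.

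The last pair of genes lay near the threshold. Hspb1 was at 7.71, 11.9 and 11.5 CPM on caloric restriction and 7.49, 5.80 and 3.80 CPM on the control diet (edgeR, log2 fold change 0.86, SE 0.27, BH-adjusted p = 0.0333). Its call was lost in edgeR without control replicate 2 (0.87, BH-adjusted p = 0.0869) or 3 (0.64, BH-adjusted p = 0.0684) and without caloric restriction replicate 2 (0.75, BH-adjusted p = 0.101) or 3 (0.79, BH-adjusted p = 0.0871). Hsp90ab1 was at 699.8, 795 and 769.8 CPM and 659, 674 and 643 CPM, a difference that missed the threshold in edgeR (log2 fold change 0.19, SE 0.08, BH-adjusted p = 0.0764). It was called by DESeq2 (BH-adjusted p = 0.0348) and by edgeR without caloric restriction replicate 1 (0.25, BH-adjusted p = 0.0224).

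The ZT12 WT livers of the time series gave another view of the same diets, in which diet and deposited table cannot be told apart. There edgeR called 4 of 10 genes, near the 38.1% of all genes tested, and 4 of the values had the opposite sign. Hsp90ab1 (edgeR log2 fold change 0.35, BH-adjusted p = 0.00529), Hsp90aa1 (0.31) and Rbm3 (0.47, BH-adjusted p = 0.0439) were called higher on caloric restriction. Cirbp kept its direction without passing the threshold in edgeR (-0.51, BH-adjusted p = 0.0580). Hspa1b was lower on caloric restriction in the series (edgeR log2 fold change -0.91, BH-adjusted p = 0.0303), at 5.26, 11.2 and 6.89 CPM against 13.7, 12.7, 19.0 and 12.3 CPM. Hspa8 (edgeR log2 fold change 0.26, BH-adjusted p = 0.151) and Dnajb1 (0.02, BH-adjusted p = 0.946) did not pass. Hspa1a (-0.71, BH-adjusted p = 0.320), Hspb1 (-0.44, BH-adjusted p = 0.175) and Hsph1 (-0.13, BH-adjusted p = 0.695) had values of opposite sign in edgeR.

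**Figure D2:**
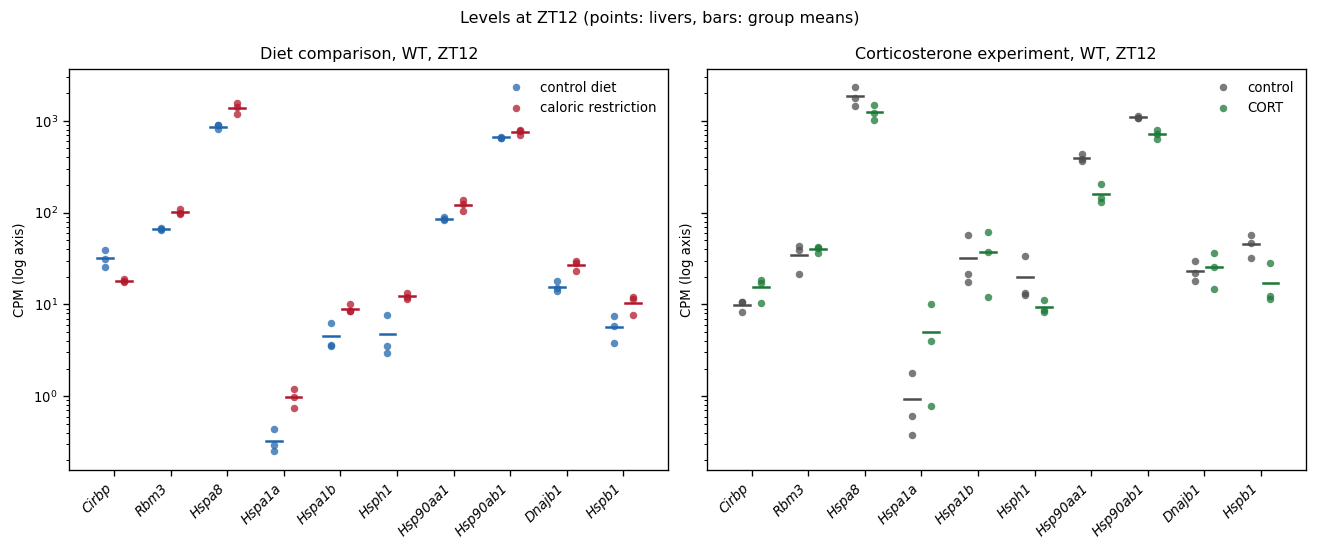
Levels of the 10 genes at ZT12 in CPM (vertical axis, log scale) in the diet comparison (control diet blue, caloric restriction red) and the corticosterone experiment (control grey, corticosterone green), with each point 1 liver and each bar the mean of 3. Cirbp is lower in all 3 restricted livers (17.4 to 18.7 CPM) than in the controls (25.8 to 39.4 CPM), and Hsp90aa1 is lower with corticosterone (129.7 to 204 CPM) than in its controls (369.9 to 440.5 CPM).

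The corticosterone experiment asks what raised hormone does without restriction, and 2 of 10 genes were called by edgeR, both HSP90 genes and both lower, beside 8.11% of all genes tested (4.47% higher, 3.64% lower). Another 5 of the genes were under an unadjusted p of 0.05, for 7 in all, and DESeq2 called 6. The median log2 fold change was -0.22 over the 10 genes and -0.00668 over all genes tested. Mitochondrial transcripts made up 8.55, 8.25 and 7.80% of the counts with corticosterone and 10.4, 10.2 and 10.5% in the controls. The part of this difference in the results was not tested. Hsp90aa1 was at 129.7, 143 and 204 CPM with corticosterone and 384, 440.5 and 369.9 CPM in the controls. The groups did not overlap, and the treated liver nearest to the controls was replicate 3 (edgeR, log2 fold change -1.33, SE 0.18, BH-adjusted p = 0.00879). This call held without any single library. Hsp90ab1 was at 638, 788 and 715 CPM and 1071, 1134 and 1087 CPM, also without overlap (edgeR, log2 fold change -0.62, SE 0.11, BH-adjusted p = 0.0185). Its call was lost in edgeR without control replicate 1 (-0.64, BH-adjusted p = 0.0595), 2 (-0.60, BH-adjusted p = 0.0847) or 3 (-0.63, BH-adjusted p = 0.0571). It was also lost in edgeR without corticosterone replicate 1 (-0.55, BH-adjusted p = 0.0612) or 3 (-0.62, BH-adjusted p = 0.0623).

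The other heat shock genes did not pass edgeR's test in the same experiment. Hspb1 was at 11.5, 12.3 and 27.9 CPM with corticosterone and 32.2, 46.1 and 57.6 CPM in the controls, without overlap (edgeR, log2 fold change -1.40, SE 0.37, BH-adjusted p = 0.0633). It was called by DESeq2 (BH-adjusted p = 0.00109) and by edgeR without corticosterone replicate 3, the highest treated liver (-1.93, BH-adjusted p = 0.0214). Hsph1 was at 11.2, 8.64 and 8.21 CPM and 12.7, 33.4 and 13.3 CPM (edgeR, log2 fold change -1.09, BH-adjusted p = 0.131; DESeq2 BH-adjusted p = 0.0434). Control replicate 2 was the highest liver, and over all alternatives the log2 fold change of Hsph1 ranged from -1.32 to -0.47. Hspa8 was at 1233, 1021 and 1495 CPM and 2337, 1791 and 1446 CPM, with overlap (edgeR, log2 fold change -0.57, BH-adjusted p = 0.130; DESeq2 BH-adjusted p = 0.0394). The inducible HSP70 pair varied widely between livers. Hspa1b was at 37.0, 12.1 and 61.9 CPM and 56.6, 21.6 and 17.4 CPM (edgeR, log2 fold change 0.21, BH-adjusted p = 0.871), and treated replicate 2 was the lowest of all 6 livers. Hspa1a was at 4.02, 0.791 and 10.1 CPM and 1.8, 0.373 and 0.615 CPM (edgeR, log2 fold change 2.43, BH-adjusted p = 0.154). It was called by DESeq2 (BH-adjusted p = 0.0357) and by edgeR without treated replicate 2 (2.93, BH-adjusted p = 0.0481). Over all alternatives the log2 fold change of Hspa1a ranged from 1.37 to 3.31. Dnajb1 was at 25.4, 14.8 and 36.5 CPM and 29.7, 17.8 and 21.9 CPM, with overlap (edgeR, log2 fold change 0.14, BH-adjusted p = 0.83).

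The cold-inducible genes did not pass the test with corticosterone. Cirbp was at 17.3, 18.4 and 10.5 CPM with corticosterone and 8.27, 10.8 and 10.7 CPM in the controls (edgeR, log2 fold change 0.63, BH-adjusted p = 0.14). Treated replicate 3 fell inside the control range, and without it edgeR called the difference (0.85, BH-adjusted p = 0.0484). Rbm3 was at 41.5, 42.6 and 36.2 CPM and 43.2, 39.7 and 21.7 CPM, with overlap (edgeR, log2 fold change 0.20, BH-adjusted p = 0.654).

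The control livers of this experiment differed from the ZT12 control-diet livers of the series in the same genes. Hsp90aa1 stood at 114, 104, 112 and 103 CPM in the series at ZT12 and 347, 313, 421 and 425 CPM at ZT16, and the corticosterone controls lay in the ZT16 range or above it. In a comparison chosen after seeing the data, the treated livers were set against the ZT12 control-diet WT livers of the series, where treatment and experiment cannot be told apart. EdgeR called 2 of 10 genes there, beside 6.91% of all genes tested. Hsp90aa1 was then higher with corticosterone (edgeR log2 fold change 0.70, BH-adjusted p = 0.0332) and Hsph1 lower (-0.80, BH-adjusted p = 0.0320). The edgeR values of Hsp90ab1 (0.34, BH-adjusted p = 0.0642), Hspb1 (0.96, BH-adjusted p = 0.138) and Hspa8 (0.45, BH-adjusted p = 0.138) also had the opposite sign. Of the HSP90 genes, only Hsp90aa1 was called by edgeR against both sets of controls, with opposite signs. Controls, experiment and deposited table changed together here, and their parts were not tested.

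Deletion of GR in hepatocytes was compared within each diet at each time point, and Hsph1 was the gene that was called. On caloric restriction edgeR called 0 of 9 genes at ZT0 (beside 0.502% of all genes tested), ZT4 (0.690%), ZT16 (4.54%) and ZT20 (1.47%), 1 of 9 at ZT8 (2.55%) and 0 of 10 at ZT12 (15.3%). At an unadjusted p under 0.05 there were 0, 1, 1 and 0 genes at ZT0, ZT4, ZT16 and ZT20, and 2 at ZT12. DESeq2 called 0 at ZT0, ZT4, ZT16 and ZT20, and 2 at ZT12. EdgeR on the control diet called 0 genes at ZT0 (beside 0.536% of all genes tested), ZT4 (0.195%), ZT8 (1.43%), ZT16 (1.98%) and ZT20 (0.420%), and 1 at ZT12 (2.08%). The counts at an unadjusted p under 0.05 were 1, 1, 1, 0 and 0 at ZT0, ZT4, ZT8, ZT16 and ZT20, and DESeq2 called 1 at ZT0 and 0 at the other 4. Leaving out Hsph1, the 99 tests over the 12 comparisons gave log2 fold changes from -0.79 to 1.27, with 6 at an unadjusted p under 0.05 and a lowest edgeR BH-adjusted p of 0.0829.

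Hsph1 on the control diet at ZT12 was at 8.85, 7.83, 4.86 and 4.44 CPM in GRLKO livers and 19.1, 20.2, 14.1 and 18.4 CPM in WT livers. All 4 GRLKO livers lay below all 4 WT livers (edgeR, log2 fold change -1.47, SE 0.23, BH-adjusted p = 0.0123), and the call held without any single library. On caloric restriction at ZT8 Hsph1 was listed at 0 in all 3 GRLKO livers and at 5.96, 1.79 and 3.99 CPM in the WT livers (edgeR BH-adjusted p = 0.0185). That call was lost in edgeR without WT replicate 3 (BH-adjusted p = 0.0664) and without GRLKO replicate 1 (BH-adjusted p = 0.0641), 2 (BH-adjusted p = 0.0576) or 3 (BH-adjusted p = 0.0583). At ZT0 on the control diet the listing was the other way round, with Hsph1 listed at 0 in all 3 WT livers and at 7.32, 25.1 and 8.52 CPM in the GRLKO livers (edgeR BH-adjusted p = 0.0503). DESeq2 called it there (BH-adjusted p = 1.87e-11), as did edgeR without GRLKO replicate 2 (BH-adjusted p = 0.0439). At ZT8 on the control diet it was at 0, 7.27, 0 and 0 CPM in GRLKO and 5.18, 10.9, 6.86 and 2.41 CPM in WT livers, and edgeR called it lower only without GRLKO replicate 2 (BH-adjusted p = 0.0282). No fold is given for these listings, since a listed 0 may be a failed estimate.

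On caloric restriction at ZT12, 2 heat shock genes were higher in GRLKO livers by DESeq2 and not by edgeR. Hspb1 was at 9.70, 10.9 and 22.0 CPM in GRLKO and 6.73, 7.39 and 7.85 CPM in WT livers, without overlap (edgeR, log2 fold change 0.94, SE 0.31, BH-adjusted p = 0.0829; DESeq2 BH-adjusted p = 0.0284). Hspa1b was at 8.26, 22.8 and 25.4 CPM and 5.26, 11.2 and 6.89 CPM, with overlap at GRLKO replicate 1 (edgeR, log2 fold change 1.27, SE 0.44, BH-adjusted p = 0.0977; DESeq2 BH-adjusted p = 0.0173). Without that liver edgeR called Hspa1b (1.62, BH-adjusted p = 0.0261). The same library held 142 CPM of summed muscle markers, led by Acta1, and its part in these values was not tested. Kupffer and myeloid markers were called higher in GRLKO livers there for 4 of 8, at sums of 149, 118 and 181 CPM against 53.6, 87.8 and 63.5 CPM in WT livers, and hepatocyte markers lower for 4 of 7. Over all genes tested 7.42% were called higher and 7.84% lower. By clock genes the 3 GRLKO livers of this group were nearest to ZT8, ZT8 and ZT4 in the series. Mitochondrial transcripts made up 10.8, 10.4 and 10.1% of their counts, against 11.3, 12.6 and 12.7% in the WT livers. The part of these differences was not tested. Cirbp was at 19.4, 18.5 and 14.1 CPM in GRLKO and 20.6, 12.0 and 15.4 CPM in WT livers, with overlap (edgeR, log2 fold change 0.11, SE 0.21, BH-adjusted p = 0.771). Hsp90aa1 was at 105, 110.5 and 147 CPM and 124, 148 and 138 CPM, also with overlap (edgeR, log2 fold change -0.19, SE 0.14, BH-adjusted p = 0.423).

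Whether the genotype effect differed between diets was tested as an interaction at each time point. EdgeR called 0 of the genes tested at ZT0 (beside 0% of all genes tested), ZT4 (0%), ZT8 (0.0810%), ZT12 (1.01%), ZT16 (0.234%) and ZT20 (0%). The counts at an unadjusted p under 0.05 were 1, 1, 0, 2, 1 and 0 in that order, and DESeq2 called 0 except at ZT8, where it called 1, which was Hsph1 with its listed zeros. Over the 56 tests the lowest edgeR BH-adjusted p was 0.163, for Hsph1 at ZT12.

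Other chaperone families were read as lists beside the members. Over all genes tested in the step from ZT12 to ZT16, 21.0% were called higher and 19.0% lower in WT livers and 20.1% and 17.8% in GRLKO livers on caloric restriction, and 6.85% and 6.60% in WT and 4.28% and 4.78% in GRLKO livers on the control diet. In the ZT16 against ZT12 comparison of WT livers on caloric restriction, edgeR called 5 of 9 other HSP70 and HSP110 genes higher and 0 lower. In GRLKO livers it was 5 of 8, and on the control diet 5 of 8 in WT and 3 of 8 in GRLKO livers, again with 0 lower by edgeR. Of HSP90 co-chaperones 11 of 23 were higher and 2 lower in WT, and 11 higher and 3 lower in GRLKO livers on caloric restriction, and 8 higher and 1 lower in each genotype on the control diet. Of chaperonins and related chaperones 4 and 8 of 10 were higher on caloric restriction in WT and GRLKO livers, and 3 of 10 in each genotype on the control diet, with 0 lower by edgeR in each. No test compared the lists with all genes or with each other. Other J-domain genes gave 3 of 17 higher and 3 lower, 7 of 17 and 2, 4 of 18 and 1, and 4 of 18 and 1 in WT and GRLKO livers on caloric restriction and then on the control diet. Other small heat shock genes gave 0 of 4 higher and 2 lower, 1 and 2, 1 and 1, and 0 and 0. RNA-binding and splicing factors gave 5 of 18 higher and 5 lower, 7 and 4, 4 and 6, and 2 and 1. Heat shock factors gave 0 of 3 called except for 2 lower in GRLKO livers on caloric restriction, and immediate early genes 0 of 12 higher and 4 lower, 0 of 12 and 2, 1 of 9 and 3, and 2 of 11 and 1.

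Hspa4l and Hyou1, HSP110 genes of the cytosol and of the endoplasmic reticulum, were among the list genes that rose. Rankings here hold among list genes, without the members, for calls without overlap and with a group mean of at least 5 CPM. In WT livers on caloric restriction Hspa4l went from 5.43 to 34.0 CPM (edgeR, log2 fold change 2.66, SE 0.20, BH-adjusted p = 0.000204) and Hyou1 from 75.5 to 323 CPM (edgeR, log2 fold change 2.11, BH-adjusted p = 0.000896). Serpinh1, a collagen chaperone, went from 0, 1.12 and 0.508 CPM to 4.77, 12.2 and 5.46 CPM there, and its log2 fold change rests on a level near 0 at ZT12 (edgeR, log2 fold change 3.78, BH-adjusted p = 0.00784). It also rose in WT livers on the control diet (edgeR, log2 fold change 1.67, BH-adjusted p = 0.00692). In GRLKO livers on caloric restriction the list genes that rose most were Hspa4l (edgeR, log2 fold change 2.40, BH-adjusted p = 0.000167), Hyou1 (log2 fold change 2.05, BH-adjusted p = 0.000806) and Dnajb11 (log2 fold change 1.78, BH-adjusted p = 0.000121). Hspa4l on the control diet (edgeR, log2 fold change 1.25, BH-adjusted p = 0.00356) and the splicing factor Tra2a (log2 fold change 1.40, BH-adjusted p = 0.0120) rose in WT livers. In GRLKO livers on that diet Hspa5, the HSP70 of the endoplasmic reticulum, rose (edgeR, log2 fold change 1.58, BH-adjusted p = 0.00542), with Hspa4l (log2 fold change 1.5, BH-adjusted p = 0.0196) and Hyou1 (log2 fold change 1.44, BH-adjusted p = 0.0260). The co-chaperone genes that fell most in WT livers on caloric restriction were Fkbp5 (edgeR, log2 fold change -2.19, BH-adjusted p = 0.000151) and Bag4 (log2 fold change -1.01, BH-adjusted p = 0.000725), with the phosphatase gene Dusp1 (log2 fold change -1.09, BH-adjusted p = 0.00848). In GRLKO livers on caloric restriction Nr4a1 (edgeR, log2 fold change -3.77, BH-adjusted p = 0.00630), Junb (log2 fold change -2.30, BH-adjusted p = 0.000957) and Bag4 (log2 fold change -1.12, BH-adjusted p = 0.000398) fell most. Those of the control diet were Junb (edgeR, log2 fold change -1.11, BH-adjusted p = 0.0104), Hspb11 (log2 fold change -0.74, BH-adjusted p = 0.0198) and Srsf5 (log2 fold change -0.51, BH-adjusted p = 0.00297) in WT livers. In GRLKO livers on that diet Junb (edgeR, log2 fold change -1.21, BH-adjusted p = 0.0198) and Bag4 (log2 fold change -0.75, BH-adjusted p = 0.00730) fell most. With 1 library left out some control-diet calls were lost in edgeR. In WT livers Hspb11 lost its edgeR call without ZT12 replicate 2 (-0.67, BH-adjusted p = 0.0533) or 3 (-0.68, BH-adjusted p = 0.0542) and without ZT16 replicate 1 (-0.70, BH-adjusted p = 0.0551) or 2 (-0.70, BH-adjusted p = 0.0540). In GRLKO livers without ZT16 replicate 1, edgeR lost Hspa4l (1.45, BH-adjusted p = 0.0653), Hyou1 (1.57, BH-adjusted p = 0.0537) and Junb (-1.23, BH-adjusted p = 0.0656). Without ZT16 replicate 3 of these livers it lost the same 3 genes (1.34, BH-adjusted p = 0.0793; 1.28, BH-adjusted p = 0.103; -1.08, BH-adjusted p = 0.0809). Hyou1 was also lost in edgeR without ZT16 replicate 2 (1.44, BH-adjusted p = 0.0757) or ZT12 replicate 4 (1.42, BH-adjusted p = 0.0636).

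In the diet comparison, where the median over the 10 members was 0.73, the 4 larger chaperone lists had medians between 0.15 and 0.26 and the immediate early genes one of 1.48, and no test compared lists with members. EdgeR called 4 of 10 other HSP70 and HSP110 genes higher and 0 lower (median log2 fold change 0.26), 7 of 23 HSP90 co-chaperones higher and 2 lower (0.15), 8 of 17 other J-domain genes higher and 1 lower (0.22), and 5 of 10 chaperonins higher and 0 lower (0.16). At 47.1% called over all genes, the shares called in these 4 lists are near the background in total, but over all genes 23.5% were higher and 23.6% lower, and no test was run on the lists. Other small heat shock genes gave 0 of 4, heat shock factors 1 of 3 higher and 2 lower, RNA-binding and splicing factors 9 of 18 higher and 6 lower, and immediate early genes 10 of 12 higher and 1 lower. Nr4a1 (edgeR, log2 fold change 3.90, BH-adjusted p = 0.0184), Dusp1 (log2 fold change 2.84, BH-adjusted p = 0.00129) and Fkbp5 (log2 fold change 2.36, BH-adjusted p = 0.00049) rose most. Nr4a1 was at 2.47, 3.46 and 29.8 CPM in the restricted livers and 0.799, 0.836 and 0.739 CPM in the controls. Without restricted replicate 3, the highest liver, its edgeR log2 fold change was 1.91 (BH-adjusted p = 0.00233), below those of Dusp1 and Fkbp5, and its edgeR call was lost without control replicate 1 (3.91, BH-adjusted p = 0.0660), 2 (3.94, BH-adjusted p = 0.0630) or 3 (3.86, BH-adjusted p = 0.0608). The RNA-binding factors Srsf7 (edgeR, log2 fold change -1.23, BH-adjusted p = 0.0105) and Hnrnpd (log2 fold change -0.80, BH-adjusted p = 0.000431) were among those that fell.

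With corticosterone, where 4.47% of all genes tested were called higher and 3.64% lower, edgeR called 0 of 8 other HSP70 and HSP110 genes higher and 1 lower (median log2 fold change -0.66), 3 of 23 HSP90 co-chaperones higher and 3 lower (-0.15), 0 of 10 chaperonins higher and 1 lower, and 0 of 18 RNA-binding and splicing factors higher and 1 lower. It called none of 18 other J-domain genes, 4 other small heat shock genes or 3 heat shock factors, and 7 of 11 immediate early genes higher (1.58). Hspa5, the HSP70 of the endoplasmic reticulum, went from 1274 CPM in the controls to 575 CPM (edgeR, log2 fold change -1.15, SE 0.24, BH-adjusted p = 0.0308). The HSP90 co-chaperones Stip1 (edgeR, log2 fold change -0.89, BH-adjusted p = 0.0130) and Fkbp4 (log2 fold change -0.76, BH-adjusted p = 0.0108) fell with it, while Fkbp5 rose (log2 fold change 2.63, BH-adjusted p = 0.00797). Egr1 (edgeR, log2 fold change 4.28, BH-adjusted p = 0.0172) and Dusp1 (log2 fold change 2.40, BH-adjusted p = 0.00141) rose among the immediate early genes. Several of these calls were lost in edgeR with 1 library left out. For Hspa5 this was so without control replicate 3 (-1.27, BH-adjusted p = 0.0600) or corticosterone replicate 1 (-1.14, BH-adjusted p = 0.0954), 2 (-1.09, BH-adjusted p = 0.0656) or 3 (-1.23, BH-adjusted p = 0.0785). Stip1 (-0.86, BH-adjusted p = 0.0660) and Fkbp4 (-0.77, BH-adjusted p = 0.0565) lost their edgeR calls without control replicate 2. Egr1 lost its own in edgeR without control replicate 1 (4.06, BH-adjusted p = 0.0665), 2 (4.78, BH-adjusted p = 0.0666) or 3 (4.13, BH-adjusted p = 0.0703).

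Markers of other cell types moved with some of these comparisons. Between ZT12 and ZT16 on caloric restriction in WT livers, where 5 heat shock genes rose, all 8 Kupffer and myeloid markers were called higher, beside 21.0% of all genes tested. Their summed level, led by Clec4f, was 53.6, 87.8 and 63.5 CPM at ZT12 and 128, 170.5 and 163 CPM at ZT16. In GRLKO livers 5 heat shock genes rose and 1 fell in the same step. There edgeR called 0 of 8 of these markers, at summed means of 149 and 164 CPM, beside 20.1% of all genes called higher. For the control diet edgeR called 0 of 7 in WT and 0 of 8 in GRLKO livers, with 5 of 6 endothelial and 3 of 6 stellate markers higher at ZT16 in WT livers and 0 in GRLKO livers, beside 6.85% and 4.28% of all genes tested. In the diet comparison 4 of 6 endothelial markers were higher on caloric restriction, at summed means of 194 and 136 CPM, with 4 of 7 hepatocyte markers higher and 1 lower, beside 23.5% of all genes higher and 23.6% lower. With corticosterone 2 of 8 Kupffer and myeloid markers were higher, at 139.5 and 97.6 CPM, beside 4.47% of all genes. The part of these cells in the results was not tested.

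Single libraries also held transcripts of neighbouring tissue. Exocrine pancreas markers, led by Amy2a5, summed to 1353 CPM in replicate 3 of the WT livers on caloric restriction at ZT12 and to 804 CPM in replicate 2 of the control-diet WT livers at ZT16. Without the first, Hsph1 lost its edgeR call in the step from ZT12 to ZT16 in WT livers on caloric restriction (1.14, BH-adjusted p = 0.0800). That edgeR call was also lost without ZT12 replicate 1 (BH-adjusted p = 0.0794), ZT16 replicate 1 (BH-adjusted p = 0.0581) or ZT16 replicate 3 (BH-adjusted p = 0.0725). Without the second library, no call among the 10 genes changed in that step on the control diet. The part of these transcripts in the results was not tested.

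The patterns most like that of Cirbp over the 24 group means of the time series, with each diet centred on its own mean, came from Washc1 (Pearson r 0.956), Snapc2 (0.952), Ccdc9 (0.951) and Prpf40b (0.947). For Hsph1 the most like were Plod1 (Pearson r 0.80), Tfrc (0.759), Pllp (0.756), P4hb (0.756) and Slc35c1 (0.755). These are the highest of 8872 genes compared, as a description over group means that share their livers, with no test. Hsph1 was listed at 0 in every liver of 2 of these groups, zeros that may be failed estimates, so its likeness is uncertain.

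Promoter sequence was at hand for 6 of the 10 genes (RefSeq, GRCm38.p6). The 250 bases before each start were searched on both strands for a pair of inverted heat shock element units, GAANNTTC or TTCNNGAA. The pair was found in Hspa1a, Hspa1b, Hsph1 and Hspb1, which share the rise at ZT16 on the control diet apart from Hspa1a, and in 4218 of 32851 promoters of the same length (12.8%). It was not found in the windows of Cirbp, nor in those of Dnajb1, which was also called higher from ZT12 to ZT16 in GRLKO livers on the control diet. A GC-rich octamer, GGCGGGGA or TCCCCGCC, was found in Cirbp, Hspa1a and Hspa1b and in 1525 of those promoters (4.64%). In Cirbp it was found in the window chr10:80167589-80167838 and not in that of the other start, chr10:80167921-80168170. Both of these windows lie inside the annotated span of Cirbp. The windows are shown because Hspa1b, Hsph1 and Hspb1 rose together from ZT12 to ZT16 on the control diet while Cirbp fell. Hspa8, Hsp90aa1 and Hsp90ab1 also rose in that step, but no promoter sequence was at hand for them or for Rbm3. A match is a description of these letters only. Capitals mark the octamer in Cirbp and the pair of heat shock element units in the others, where the octamer of Hspa1a stands in lower case. Each sequence is written 5′ to 3′ on the gene's strand, and the Hspa1a and Hspa1b windows shown are identical (Hspa1a at chr17:34972213-34972300 and Hspa1b at chr17:34959295-34959382, minus strand). Over the whole 250 bases that pair differed at 3. The other windows lie at chr10:80167589-80167610 on the plus strand (Cirbp), chr5:149636351-149636380 on the minus strand (Hsph1) and chr5:135887762-135887869 on the plus strand (Hspb1, with 2 pairs).
Cirbp: ctgTCCCCGCCtcctagtcgct
Hspa1a: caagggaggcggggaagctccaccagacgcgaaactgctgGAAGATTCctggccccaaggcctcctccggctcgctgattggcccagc
Hsph1: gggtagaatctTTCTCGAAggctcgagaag
Hspb1: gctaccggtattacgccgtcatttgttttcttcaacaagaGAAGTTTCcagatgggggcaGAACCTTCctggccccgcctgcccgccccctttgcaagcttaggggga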

How the data were processed

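Per the labels and the study's methods, the authors checked reads with FastQC and MultiQC, quantified them with Salmon, summed transcripts to genes with tximport and deposited estimated counts per gene that were not normalized. The submitters' notes name the build mm10, and the transcript annotation is not given in the sources used here. A further 6 columns of variance-stabilized values were not used, since the tests need counts.

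Estimated counts were rounded to whole numbers. Of 27654 Ensembl identifiers 27244 were matched to a symbol. Each of 24 comparisons was fitted on its own groups in R 4.3.3 with edgeR 4.0.16 (TMM scaling, filterByExpr at a minimum count of 10, quasi-likelihood F test, Benjamini-Hochberg adjustment, threshold 0.05). The SE of a log2 fold change was taken from its size and the F statistic. JTK_CYCLE was written in R with its exact null distribution and run on variance-stabilized values (DESeq2 1.42.0), with calls at an amplitude above 0.1. For rhythm differences limma 3.58.1 tested whether sine and cosine terms of time depended on the group. Each step was tested on simulated data. P-values of edgeR, DESeq2 and limma weigh a difference against the variation between mice, and those of JTK_CYCLE test the order of ranks over time. No library repeated another of its group (102 pairs, with chi-square over degrees of freedom of 10.4 or more and a median of 22.5).

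The members and lists were chosen with earlier results of these data known. The named genes were all members in every comparison, Nr3c1, and up to 3 list genes with the highest and 3 with the lowest log2 fold change among calls without overlap between mice and with a group mean of at least 5 CPM, in the diet, corticosterone and ZT16 against ZT12 comparisons. The 5 genes most like Cirbp and the 5 most like Hsph1 were taken among genes with a mean of at least 5 CPM, and some genes that these rules take are not reported here. Fkbp5, Arntl and Dbp were given as checks. Lists held chaperone families, heat shock factors, RNA-binding and splicing factors, immediate early genes and markers of 11 cell types or tissues, with 186 of 188 genes in the tables.

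Alternatives were DESeq2, DESeq2's size factors in edgeR, no filter on low counts, Hspa1a and Hspa1b summed, the replicate number as a block, each library left out, the ZT12 WT livers of the time series for the diet, and for rhythms no minimum amplitude, log2 CPM with a prior count of 2 and edgeR's F test over time points. The corticosterone comparison against the time series, the F test without ZT16 and the list genes with a library left out were chosen after seeing the data.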

Additional observations from a re-analysis of the deposited data

Results flagged for a closer look

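Among groups of 4 control-diet livers, 4 of 60 member values tested had 1 liver far from the other 3, and chance flags about 1 in 20 groups. Cirbp was at 24.6 CPM in replicate 1 of the WT livers at ZT20, with the others between 15.7 and 16.7 CPM. Replicate 1 of the WT livers at ZT16 was high for a pair of genes: Hspa1a was at 4.15 CPM, with the others between 1.65 and 1.98 CPM, and Dnajb1 was at 35.3 CPM, with the others between 22.7 and 24.1 CPM. Hsph1 was at 7.27 CPM in replicate 2 of the GRLKO livers at ZT8 and listed at 0 in the other 3.

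The daily rhythm differed between caloric restriction and the control diet in WT livers for 5 genes by limma's F test with Benjamini-Hochberg adjustment. Over all genes tested 26.6% were called, and diet and deposited table cannot be told apart there. Adjusted p-values by limma were 4.75e-05 for Cirbp, 0.00464 for Hsp90aa1, 0.00709 for Rbm3, 0.0232 for Hsp90ab1 and 0.0347 for Hspa8. With 1 replicate number left out, Hsp90ab1 and Hspa8 lost the call in each fit. Rbm3 lost it without replicate 1 and Hsp90aa1 without replicate 2.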

How the results depend on the processing

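Over all 24 comparisons of groups the members gave 225 log2 fold changes. With DESeq2's size factors in edgeR 224 kept their side of the threshold and 1 passed it newly, as did 224 and 1 without the filter on low counts, and all 216 kept it with Hspa1a and Hspa1b summed. DESeq2 gave an adjusted p for 218, of which 208 kept their side and 10 passed the threshold newly. None of these values changed direction under these 4 settings. For rhythms, log2 CPM changed the call of none of 70 member values and dropping the minimum amplitude of none of 40, while with edgeR's F test over time points 35 of 38 kept theirs, or 30 of 38 without ZT16. Without the filter Hspa8 lost its rhythm difference between the diets (limma BH-adjusted p = 0.0522).

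The number of genes called moved as follows, and the cause was not tested. For the diet it was 4 in the time series and 8 to 10 with a library left out. For corticosterone it was 6 with DESeq2 and 1 to 3 with a library left out. Between genotypes on caloric restriction it was 0 to 1 at ZT8 with a library left out, and at ZT12 it was 2 with DESeq2 and 0 to 1 with a library left out. On the control diet it was 1 at ZT0 with DESeq2 and 1 without the filter, and 0 to 1 at ZT0 and ZT8 with a library left out. The interaction at ZT8 gave 1 with DESeq2. With a library left out, the step from ZT12 to ZT16 gave 4 to 7 in WT and 8 to 10 in GRLKO livers on caloric restriction. In GRLKO livers on the control diet it gave 6 to 8. With 1 replicate number left out, rhythm calls were 2 in WT and 2 to 3 in GRLKO livers on caloric restriction, 3 to 7 and 1 to 4 on the control diet, and 2 to 3 for the difference between diets, with fewer samples in each fit.

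Some log2 fold changes reversed, and the cause was not tested. In the time series the diet gave Hspa1b -0.91, Hspa1a -0.71, Hspb1 -0.44 and Hsph1 -0.13. Against the time-series controls, chosen after seeing the data, corticosterone gave Hspb1 0.96, Hsp90aa1 0.70, Hspa8 0.45, Hsp90ab1 0.34, Rbm3 -0.41 and Cirbp -0.40. With a library left out of the corticosterone experiment, Hspa1b ranged from -0.37 to 0.92 (-0.00315 and -0.080 without control replicates 2 and 3, -0.37 without treated replicate 3). Rbm3 ranged from -0.048, without control replicate 3, to 0.38, and Dnajb1 from -0.20, without treated replicate 3, to 0.42, with -0.015 without control replicate 2.

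Replicate numbers did not pair the livers: in 0 of 18 comparisons was every correlation of same-numbered livers over 0.1 (57 pairs, -0.235 to 0.223). With the number as a block 8 of 225 member values changed direction, none of them called in either fit. The calls in GRLKO livers on the control diet from ZT12 to ZT16 went from 8 to 2 with the block, as those over all genes went from 1065 to 16. The block also moved Hspb1 in the diet comparison (edgeR BH-adjusted p = 0.0658), Hspb1 with corticosterone (edgeR BH-adjusted p = 0.0262), Hsph1 in WT livers on caloric restriction from ZT12 to ZT16 (edgeR BH-adjusted p = 0.0728), and Cirbp in that step across the threshold in WT livers on caloric restriction (edgeR BH-adjusted p = 0.0217) and on the control diet (edgeR BH-adjusted p = 0.0598). Low levels of Hspa1a and the zeros of Hsph1 limit what the depth can show.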

Other observations

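On caloric restriction at ZT12, where edgeR's quasi-likelihood test called 0 of the 10 members between genotypes (2 at an unadjusted p under 0.05, 2 by DESeq2), edgeR called genes of other lists lower in GRLKO livers. These were 6 of 17 other J-domain genes (median log2 fold change -0.32), 3 of 10 chaperonins (-0.17), 1 of 8 other HSP70 and HSP110 genes and 1 of 23 HSP90 co-chaperones among chaperones, and 5 of 18 RNA-binding and splicing factors (-0.21). Over all genes tested 15.3% were called, with 7.84% lower. Immediate early genes gave 2 of 12 higher and 1 lower.

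The remaining marker lists held few genes that passed the filter. Between ZT12 and ZT16 in WT livers on caloric restriction edgeR called 1 of 1 neutrophil marker higher, and none of 3 cholangiocyte, 5 erythrocyte and 1 adipocyte markers. No lymphocyte, muscle or exocrine pancreas marker passed the filter there. In the diet comparison 2 of 4 cholangiocyte markers and 1 of 1 adipocyte marker were higher, and 1 of 3 lymphocyte and 1 of 5 erythrocyte markers lower. Over all genes tested 21.0% were higher in the first of these comparisons, and 23.5% higher and 23.6% lower in the second.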
